A study of Mus musculus with 3 samples.

Results

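The 10 genes described here, Cldn5, Ocln, Tjp1, Slc2a1, Abcb1a, Mfsd2a, Flt1, Pecam1, Cav1 and Cav2, are genes of the blood-spinal cord barrier, taken by symbol from a table of 31040 genes, and all 10 had UMIs (unique molecular identifiers, each 1 captured RNA molecule). They were followed through single-nucleus RNA sequencing (snRNA-seq) of the lumbar spinal cord at age 90 days. SOD1G93A mice carried a high-copy transgene of mutant human SOD1 (B6.Cg-Tg(SOD1G93A)1Gur/J, 3 females and 3 males) and wild-type (WT) mice were C57BL/6J littermates (3 females and 3 males). The human transgene is present in all cells of these mice and is driven by the human SOD1 promoter, so it is not restricted to endothelium, and all 12 mice were perfused with saline through the heart before the cord was frozen. Each of pools A, B and C held hashtagged nuclei from 4 mice, a female and a male of either genotype, which were run together.

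The barrier is formed by endothelial cells that line the vessels of the cord. Claudin-5 and occludin seal the gaps between neighbouring cells and are anchored to the cytoskeleton by scaffold proteins such as the product of Tjp1. Nutrients cross on dedicated carriers, drugs are pumped back by transporters of the ABC family, and vesicle traffic through caveolae is held low. Pericytes, the mural cells wrapped around capillaries, help to keep these traits.

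The deposited labels called 501 of 14662 nuclei endothelial, 21 to 65 in each mouse, and their summed counts were 180221 to 529083 UMIs per mouse. The median endothelial nucleus held 6963 UMIs. Only 15 cell barcodes occurred in more than 1 pool, and 1 endothelial nucleus carried such a barcode. Some labels of other types had weak support in these counts. The 4 microglial markers summed to 131 ± 45.5 CPM (counts per 1e6 UMIs) in nuclei labelled microglia (SD, n = 12 mice), where 4 neuron markers summed to 2164 ± 223. The neuron markers summed to 4464 ± 988 CPM in nuclei labelled Schwann and meningeal. Levels given for these labels are those of the label. The mice were separate animals, so the tests below measure spread between animals. The intervals and levels of low genes carry counting error as well.

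Promoters are printed for the 5 members on which the comparisons below turn most, from 120 bases before to 20 bases after the start of transcription, 5′ to 3′ on the strand of the gene (RefSeq, GRCm38.p6, the mm10 build of the files). Cldn5 (chr16:18776727-18776866, plus strand) separates endothelial nuclei from all others, Slc2a1 (chr4:119108625-119108764, plus strand) and Flt1 (chr5:147725992-147726131, minus strand) had high endothelial counts, and the neighbours Cav2 (chr6:17281065-17281204, plus strand) and Cav1 (chr6:17306215-17306354, plus strand) had counts in astrocytes. Capitals mark GGGCGG, the GC box, and TATAAA, the TATA box, on either strand.
Cldn5: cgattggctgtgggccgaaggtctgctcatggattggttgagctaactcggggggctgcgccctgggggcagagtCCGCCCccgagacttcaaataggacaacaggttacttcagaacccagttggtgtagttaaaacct
Slc2a1: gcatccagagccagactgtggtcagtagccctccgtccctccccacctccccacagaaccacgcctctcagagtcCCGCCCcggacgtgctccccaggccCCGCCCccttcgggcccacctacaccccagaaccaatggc
Flt1: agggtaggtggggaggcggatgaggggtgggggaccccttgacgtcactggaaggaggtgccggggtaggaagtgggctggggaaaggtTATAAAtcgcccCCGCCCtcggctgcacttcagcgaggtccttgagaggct
Cav2: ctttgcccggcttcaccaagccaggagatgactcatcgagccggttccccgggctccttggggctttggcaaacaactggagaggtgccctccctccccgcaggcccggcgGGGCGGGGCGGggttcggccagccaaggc
Cav1: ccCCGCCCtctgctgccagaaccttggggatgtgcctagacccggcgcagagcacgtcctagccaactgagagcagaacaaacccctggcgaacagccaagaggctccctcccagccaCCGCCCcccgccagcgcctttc
A window of 300 bases (250 before and 50 after the start) was found for 9 of the 10 members, with 11 windows in all because Cav1 and Ocln have an additional start each. The windows of Abcb1a and Tjp1 lie far from the starts of these genes in the GENCODE annotation, which leaves 9 windows at or near annotated gene starts. Of these, the window of the additional Cav1 start (chr6:17307390-17307689) lies inside the annotated gene. GGGCGG lay in 8 of the 11 windows, in 7 of these 9 and in 35.7% of all 32851 promoter windows, and the 2 copies in the printed Cav2 stretch overlap by 1 base. TATAAA lay in 3 of the 11 windows, those of Slc2a1, Flt1 and the upstream start of Cav1, and in 13.6% of all windows. ETS factors, which drive many endothelial genes, read a GGAA core in several forms, of which only CCGGAA and CAGGAA were counted. These each lay in 1 of the 11 windows (Ocln and Mfsd2a) and in 14.9% and 30.6% of all windows. Other forms of GGAA, as in the printed Flt1 stretch, were not counted. These are matches of letters and not measured sites. The caveolin genes are neighbours on the plus strand of chromosome 6 with 17.22 kb between them (GENCODE annotation: Cav2 at chr6:17281185-17289115 and Cav1 at chr6:17306335-17341452). In the same annotation Cldn5 lies at chr16:18776847-18778262, Ocln at chr13:100496507-100552718, Tjp1 at chr7:65296165-65527781, Slc2a1 at chr4:119108711-119137983, Abcb1a at chr5:8660077-8748575, Mfsd2a at chr4:122946850-122961188, Flt1 at chr5:147561604-147726011 and Pecam1 at chr11:106654217-106750628.

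All 10 members had their highest mean level in the endothelial nuclei. Because the types were assigned from expression, the levels by type are a description without a test. Cldn5, the main claudin of barrier endothelium, stood farthest apart. It reached 1367 ± 271 CPM in endothelial nuclei and at most 12.4 ± 14.6 CPM in any other type (SD, n = 12 mice), and 95.4% of its 6704 UMIs lay in the 501 endothelial nuclei. Its lowest endothelial mouse, at 903 CPM, lay far above the highest mouse of the next type, Schwann and meningeal, at 45.6 CPM. Ependymal, fibroblast and OPC nuclei had 0 UMIs of Cldn5.

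Ocln encodes occludin, a membrane protein of tight junctions, and reached 474 ± 55.6 CPM in endothelial nuclei. The next type was ependymal at 61.5 ± 59.3 CPM (n = 11 mice), and no ependymal mouse (highest 170 CPM) reached the lowest endothelial value of 361 CPM. Tjp1, the junction scaffold, was the exception among the members. It reached 1875 ± 287 CPM in endothelial nuclei, but 692 ± 53.1 in oligodendrocytes and 482 ± 27.2 in neurons, and 92.1% of its UMIs lay outside the endothelial type. The ranges over mice still did not overlap between endothelial nuclei (lowest 1372 CPM) and oligodendrocytes (highest 790 CPM), although 1 mouse reached 1444 CPM in its few fibroblasts.

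Of the transporters, Slc2a1, the glucose carrier GLUT1, reached 1940 ± 338 CPM in endothelial nuclei, and astrocytes followed at 70.9 ± 13.8 CPM. Abcb1a, which encodes the drug pump P-glycoprotein, reached 1393 ± 144 CPM. Fibroblasts followed at 235 ± 406 CPM (n = 10 mice), on 21 UMIs in all, and their range overlapped the endothelial one. Mfsd2a, a lipid carrier that also holds down vesicle transport across the endothelium, was shared with astrocytes. It reached 155 ± 29.1 CPM in endothelial nuclei and 50.1 ± 12.0 in astrocytes, so that 39.9% of its UMIs lay in the first type and 29.2% in the second, and the ranges over mice (lowest 109 and highest 67.1 CPM) did not overlap.

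Flt1, a receptor for VEGF, reached 4716 ± 572 CPM in endothelial nuclei, with fibroblasts next at 75.7 ± 120 CPM. Pecam1, an adhesion protein of endothelial contacts, reached 599 ± 54.0 CPM, with fibroblasts next at 26.8 ± 69.1 CPM. The caveolins, which coat caveolae, were less well separated. Cav1 reached 283 ± 55.8 CPM and overlapped with fibroblasts (110 ± 169 CPM), and Cav2 reached 187 ± 48.4 CPM and overlapped with Schwann and meningeal nuclei (33.2 ± 35.1 CPM). Below the first place, neighbouring types in the order of each gene overlapped in their ranges over mice. These levels are not per length and are not compared between genes.

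**Figure D1:**
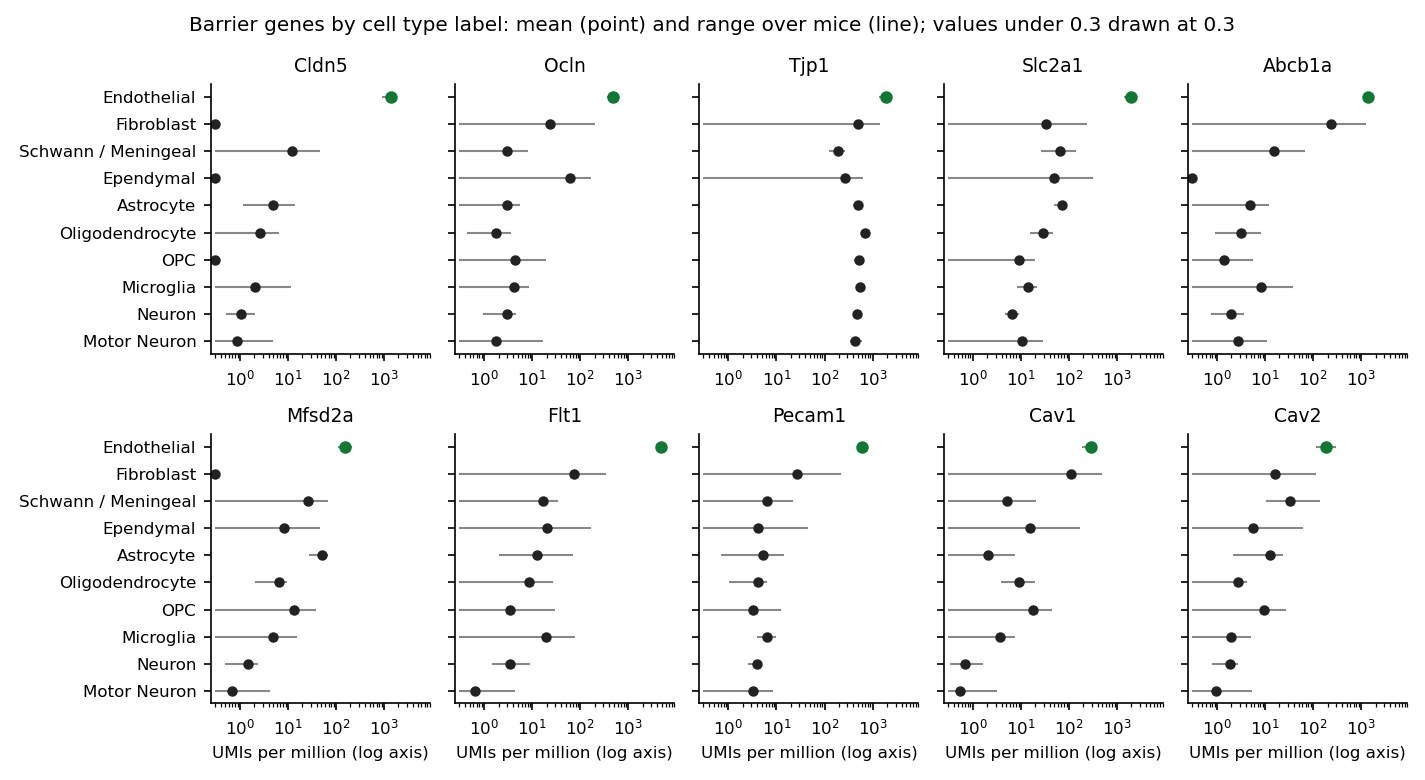
Level of each barrier gene (CPM, log axis) in the 10 labelled cell types. Points are means over mice, lines run from the lowest to the highest mouse, endothelial points are green, and values under 0.3 are drawn at 0.3. The endothelial mean is the highest for all 10 genes, and Tjp1 is the gene with high levels in most types.

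Single endothelial nuclei carried most members at once. All 10 were detected in 175 of the 501 nuclei (34.9%), 9 in 140 and 8 in 93, and no nucleus had fewer than 2. Cldn5 had a UMI in 96.0% of endothelial nuclei and in 1.43% of neurons, although the median neuron held 12864.5 UMIs. With each nucleus thinned to 1000 UMIs the shares were 65.5% and 0.0684%. For Flt1 the thinned shares were 96.0% and 0.353%, for Pecam1 47.2% and 0.319%, and for Cav2 17.9% and 0.251%. Only 3 endothelial nuclei were left out as shallower than 1000 UMIs.

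The low counts of the members in neurons did not keep the proportions of endothelial nuclei. In endothelial nuclei, the UMIs of Cldn5 came to 29.0% of those of Flt1, those of Pecam1 to 12.7% and those of Ocln to 9.92%. In neurons Cldn5 came to 27.3%, a like proportion, but Pecam1 to 106% and Ocln to 76.0%. The origin of the neuronal counts was not tested.

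The endothelial label was checked against markers that are not members. The 12 endothelial markers, among them Cdh5, Tek, Tie1, Ptprb and Kdr, summed to 5041 ± 489 CPM in the endothelial nuclei and to at most 215 ± 184 CPM elsewhere, and 492 of the 501 nuclei (98.2%) had UMIs of 3 or more of them. The same nuclei also carried 9 mural markers at 5967 ± 597 CPM, which included the pericyte genes Rgs5, with a UMI in 97.0% of nuclei, Vtn in 67.3% and Abcc9 in 60.9%. No mural marker was at 0. Of the 8 mural genes other than Rgs5, 302 nuclei (60.3%) had 3 or more and 116 (23.2%) had none. Of these 302, 300 also had 3 or more endothelial markers, so that nuclei with mural markers and without endothelial ones were nearly lacking. Among all nuclei of other labels, 138 had 3 or more of the 8 mural genes.

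Nuclei with mural markers were also the deeper ones, with a median of 9700 UMIs against 4468 in those with none. Most nuclei with the endothelial label thus carried markers of both cell types, and doublets of nuclei from 1 mouse are not marked in the deposited tables. The part of doublets or of shared RNA in these counts was not tested. The members' mean levels in the classes differed by less than the larger SD over mice. That SD includes counting error, since the 116 nuclei with none were spread over 12 mice, so equal levels are not shown. Flt1 was at 4808 ± 1499 CPM in nuclei with none of the 8 genes and 4659 ± 458 in those with 3 or more (SD, n = 12 mice), Cldn5 at 1169 ± 486 and 1378 ± 287, Abcb1a at 1324 ± 379 and 1400 ± 159, and Ocln at 451 ± 147 and 482 ± 53.1. Cav2 was at 142 ± 86.3 and 200 ± 51.5 CPM, and Rgs5 at 1891 ± 745 and 3785 ± 439. Both classes were present in either genotype. Those with none were 23.0% of WT and 23.3% of SOD1G93A endothelial nuclei, and those with 3 or more were 61.7% and 58.8%. The summed mural markers were at 5775 to 7287 CPM in WT and at 5072 to 6071 CPM in SOD1G93A mice.

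**Figure D2:**
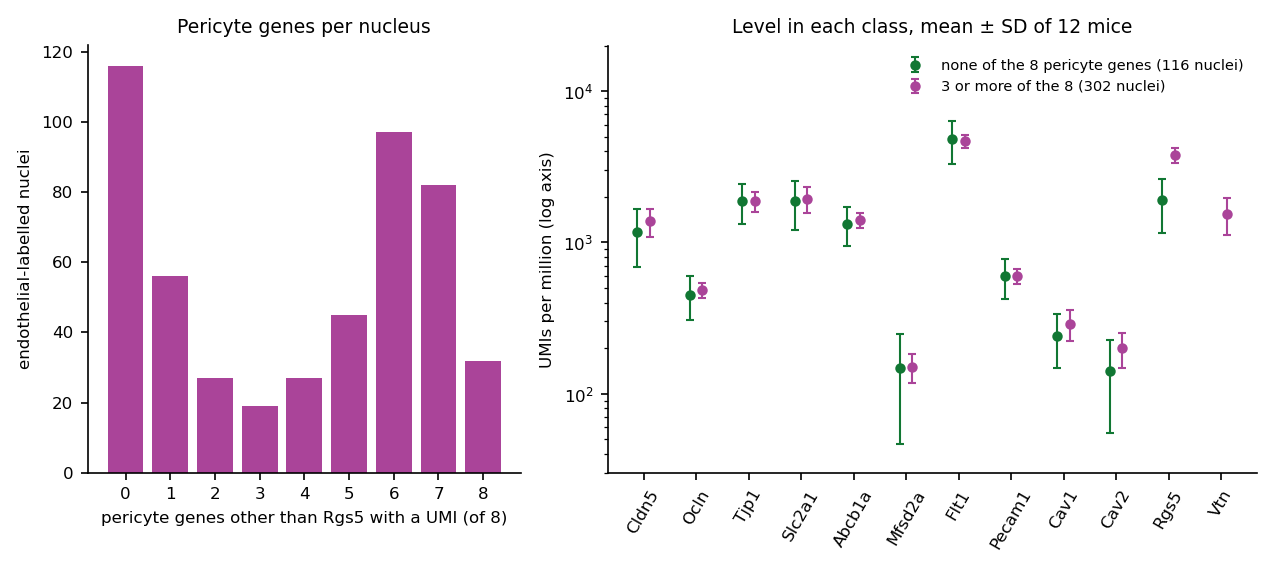
Left, number of endothelial-labelled nuclei by how many of 8 pericyte genes other than Rgs5 had a UMI. Right, levels of the barrier genes, Rgs5 and Vtn (CPM, log axis, mean ± SD of 12 mice) in the 116 nuclei with none of the 8 and the 302 with 3 or more. The barrier genes overlap between the classes, Rgs5 is at 1891 against 3785 CPM, and Vtn, one of the 8, is at 0 in the first class and is not drawn there.

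The main question was whether barrier genes differed between SOD1G93A and WT endothelium. None of the 10 members passed FDR < 0.1 in endothelial nuclei, where 0.0131% of 7637 genes did (1 gene, Sod1, at 3.68 on the log2 scale and limma FDR = 1.14e-13, a check of the labels that may include reads of the human transgene). None had an unadjusted p under 0.05 in limma (4.37% of all genes), in edgeR or in DESeq2, and the lowest limma FDR among them was 0.980. For nuclei with the endothelial label, most of which also carried mural markers, the intervals bound the difference of each gene taken singly. The 95% intervals of all 10 log2 fold changes lay between −0.53 and 0.44, that is between 0.694 and 1.36 times the WT level. The members' intervals had a median width of 0.62 on the log2 scale against 0.98 over all genes tested. The genotypes overlapped for all 10 members, and did not overlap for 0.144% of genes. In the following, levels are CPM on library sizes scaled with TMMwsp factors.

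Among the junction genes, Cldn5 ran from 1221 to 1923 CPM in the 6 WT mice with a median of 1459. In the SOD1G93A mice it ran from 953 to 1754 with a median of 1384. The ranges overlapped, and the log2 fold change was −0.11 (95% interval −0.45 to 0.24). Ocln ran from 462 to 617 CPM (median 476) in WT and from 380 to 574 (median 512) in SOD1G93A mice. Tjp1 ran from 1430 to 2607 CPM (median 1920) in WT and from 1645 to 2181 (median 1964) in SOD1G93A mice. Their log2 fold changes were −0.04 and −0.03, and for both the highest single mouse was WT.

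Of the transporters, Slc2a1 ran from 1590 to 2431 CPM (median 2053) in WT and from 1470 to 2541 (median 2004) in SOD1G93A mice. Its log2 fold change was −0.05 (95% interval −0.36 to 0.26). Abcb1a ran from 1251 to 1851 CPM (median 1454) in WT and from 1329 to 1636 (median 1475) in SOD1G93A mice. The pump had the narrowest interval of the members, a log2 fold change of 0.01 with limits of −0.26 and 0.28. Mfsd2a ran from 117 to 219 CPM (median 171) in WT and from 122 to 177 (median 165) in SOD1G93A mice, a log2 fold change of −0.10 (95% interval −0.41 to 0.22).

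Flt1 had the smallest p of the members. It ran from 4283 to 5234 CPM (median 4572) in WT and from 3886 to 5738 (median 5432) in SOD1G93A mice. In 5 SOD1G93A mice it was at or above 5344 CPM, over the highest WT mouse, and in the female of pool A it was at 3886 CPM, below all WT mice. The log2 fold change was 0.16 (95% interval −0.11 to 0.44, limma FDR = 0.980). Pecam1 ran from 553 to 699 CPM (median 622) in WT and from 561 to 713 (median 639) in SOD1G93A mice, a log2 fold change of 0.04.

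The caveolins had wider intervals. Cav1 ran from 250 to 365 CPM (median 324) in WT and from 199.9 to 360.1 (median 289) in SOD1G93A mice, a log2 fold change of −0.17 (95% interval −0.53 to 0.18). Cav2 ran from 122 to 304 CPM (median 190.0) in WT and from 149.9 to 225 (median 201) in SOD1G93A mice, a log2 fold change of −0.05 (95% interval −0.47 to 0.37). Across the members, 7 fold changes were below 0 and 3 above, with a median of −0.04 on the log2 scale, where the median of all genes tested was −0.01. This split turned with single mice. Without the SOD1G93A male of pool A, 7 were above 0 and 3 below with a median of 0.03, and without any one of the other mice 2 to 5 were above 0 with medians of −0.08 to −0.01. In the 302 nuclei with 3 or more mural genes, and in the 116 with none, no member passed either. In the latter only 8 members passed the filter on low counts, and Ocln had a log2 fold change of −0.59 (95% interval −1.10 to −0.08, limma FDR = 0.659). Intervals in these 116 nuclei were wider, at −1.04 to 0.32 for Cav1 and −0.97 to 0.45 for Cldn5.

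**Figure D3:**
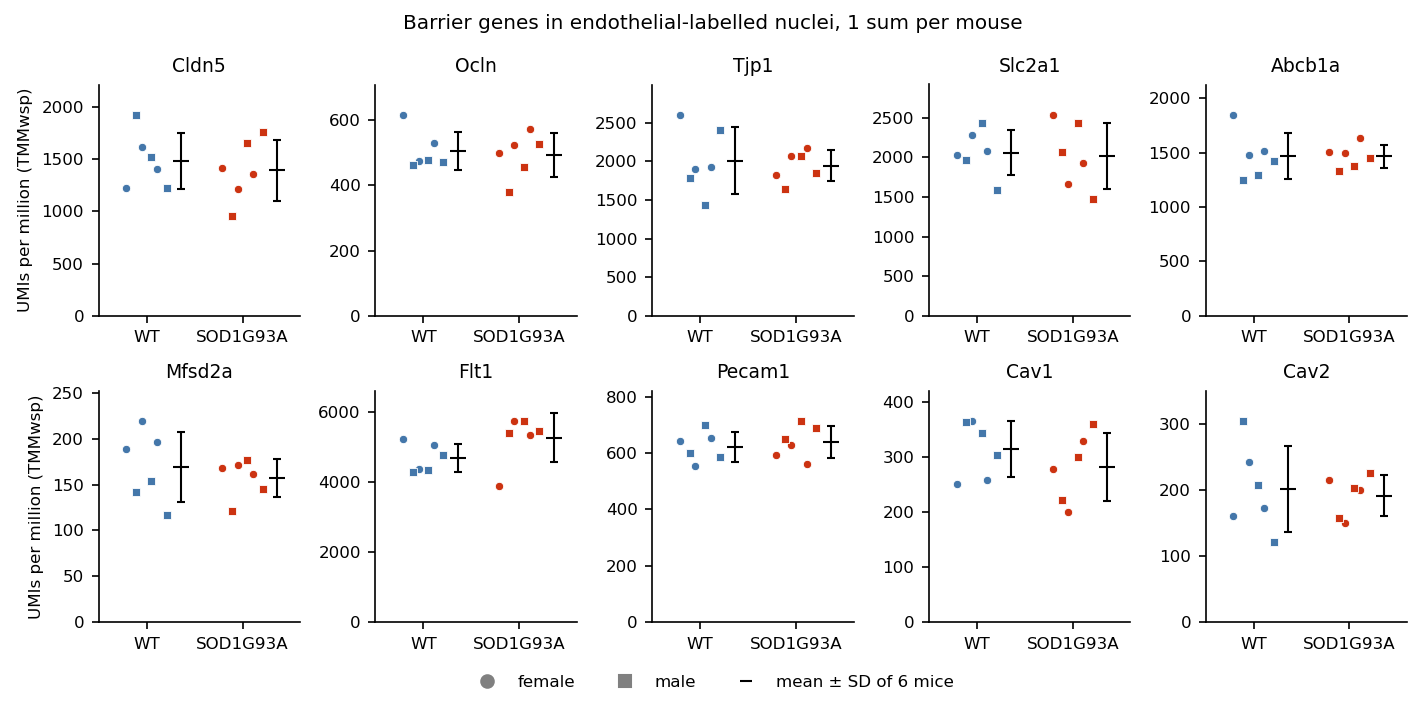
Each barrier gene in endothelial-labelled nuclei of each mouse (CPM on TMMwsp-scaled library sizes, linear axes from 0). Circles are females and squares males, within a genotype from left to right pools A, B and C, and black marks are the mean ± SD of 6 mice. The genotypes overlap in all 10 panels, and the low SOD1G93A point of Flt1 is the female of pool A at 3886 CPM.

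The wider pathways around these genes were read in the same fit from 7 lists, whose medians stand beside the median of −0.01 of all genes. No gene of any list passed FDR < 0.1 by genotype, by sex or in the difference between the sexes. In the junction list, 14 of 22 genes were tested with a median log2 fold change of 0.06. The gene of smallest p was Ctnnd1, a catenin of adherens junctions, at 88.3 ± 6.93 CPM in WT and 65.6 ± 25.0 in SOD1G93A mice (log2 difference −0.53, limma FDR = 0.980). In the transport list, 24 of 26 genes had a median of −0.06, led by the amino acid carrier Slc7a5 at 820 ± 75.9 and 647 ± 90.1 CPM (log2 difference −0.35, limma FDR = 0.980).

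In the list on caveolae and vesicles, 8 of 9 genes had a median of −0.10, and the gene of smallest p, Emcn, had a log2 difference of −0.21 (limma FDR = 0.980). In the list on VEGF and angiopoietin signalling, 12 of 16 genes had a median of −0.01, and the Notch ligand Dll4 had a log2 difference of −0.79 (limma FDR = 0.980). The Wnt list, the pathway that induces the barrier, had 18 of 22 genes tested with a median of 0.01. Its receptor Fzd4 had 214 ± 27.9 CPM in WT and 159 ± 42.0 in SOD1G93A mice with a log2 difference of −0.48 (limma FDR = 0.980). The list on leukocyte adhesion had 7 of 9 genes tested with a median of −0.13 and Vwf as the gene of smallest p (−0.50 on the log2 scale, limma FDR = 0.980). All 13 genes of the basement membrane list were tested, with a median of 0.02, and Sparc had a log2 difference of −0.38 (limma FDR = 0.980).

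Between the sexes, 0 of the 10 members passed in endothelial nuclei, where 0.223% of 7637 genes did. Mfsd2a was the single member with an unadjusted p under 0.05 in limma, as had 5.84% of all genes, and in edgeR, and DESeq2 had none. It ran from 162 to 219 CPM in females and from 117 to 177 in males, higher in the female of 5 of 6 pairs of the same genotype and pool. The log2 fold change of female over male was 0.36 (95% interval 0.05 to 0.68, limma FDR = 0.826). Abcb1a was the 1 member for which the sexes did not overlap, at 1482 to 1851 CPM in females and 1251 to 1454 in males, as for 0.340% of genes. Its log2 fold change of 0.22 had an interval of −0.05 to 0.49 (limma FDR = 0.890). For the difference of the genotype effect between the sexes, 0 of 10 members and 0% of 7637 genes passed in limma, edgeR or DESeq2, and no member had an unadjusted p under 0.05 by any of the 3 tools (2.8% of all genes in limma). The largest difference among the members was 0.35 for Mfsd2a, male minus female, with an interval of −0.29 to 0.98. Of 48 tests of whether the genotype effect on a member differed between the sexes, in all types and over all nuclei, 0 passed a limma FDR of 0.1 and 3 had an unadjusted p under 0.05. These were Abcb1a in neurons, with a difference of 1.38 on the log2 scale (male minus female, limma FDR = 0.998), Flt1 in neurons (2.06, limma FDR = 0.998) and Flt1 over all nuclei (0.98, limma FDR = 0.9998). Of all genes, 2.47% had such a p in neurons and 2.64% over all nuclei. Over all nuclei, the log2 fold change of Flt1 by genotype was 1.18 in males (95% interval 0.51 to 1.85, limma FDR = 0.0953). In females it was 0.20 (95% interval −0.46 to 0.86, limma FDR = 0.967). The share of all genes that passed in 1 sex alone was not counted, so the values by sex are a description. The difference between the sexes did not pass.

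Summed over all nuclei of a mouse, the barrier genes gave other values. In such sums, more endothelial nuclei and more RNA per nucleus cannot be told apart. Averaged over the sexes, none of the 10 members passed FDR < 0.1, where 3.14% of 17097 genes did, and 5 had an unadjusted p under 0.05 in limma, as did 13% of all genes, and 5 in edgeR, also beside 13% of all genes. In DESeq2 4 members and 10.6% of all genes had such a p, and 1 member, Slc2a1, and 3.53% of all genes passed. Tjp1, which is expressed by most types, had a log2 fold change of −0.03 (95% interval −0.21 to 0.15). The other 9 members had fold changes from 0.21 for Mfsd2a to 0.69 for Flt1 on the log2 scale. Flt1 ran from 51.7 to 193 CPM in WT and from 104 to 273 in SOD1G93A mice (95% interval 0.22 to 1.16, limma FDR = 0.164), and Slc2a1 from 40.2 to 84.2 and from 53.0 to 88.7 CPM (0.46 on the log2 scale, limma FDR = 0.174). The genotypes overlapped for both.

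The share of endothelial nuclei was also higher on average in the SOD1G93A mice. The mean share was 3.11% ± 1.19 for WT and 4.34% ± 1.26 for SOD1G93A mice (SD over 6 mice), with single mice from 1.77% to 4.60% and from 2.98% to 6.53%, a log2 fold change of 0.56 that did not pass (edgeR FDR = 0.331 over 10 types). In the same test 2 of the other types passed FDR < 0.05, Schwann and meningeal nuclei with a log2 fold change of 1.42 (edgeR FDR = 0.0479) and neurons with −0.28 (edgeR FDR = 0.0472), and these shares also enter the sums over nuclei. Both values lie just under the threshold and were not followed through the alternatives. The study itself reported no cell type that differed in abundance by genotype or sex (FDR > 0.05). The WT female of pool A had the second highest WT share (4.54%) and the highest WT level of Flt1, and without this mouse 5 members passed over all nuclei, where 4.58% of all genes did. Without the SOD1G93A male of pool A, which had 18.9 CPM of Cldn5, the lowest SOD1G93A value, 8 members and 3.76% of all genes passed. With the endothelial nuclei taken out, the log2 fold change of Flt1 was 0.02 (95% interval −0.75 to 0.80), that of Pecam1 −0.03, that of Ocln 0.12 and that of Abcb1a −0.26. Cav2 had 0.44 with and without these nuclei (95% interval 0.04 to 0.84 without, limma FDR = 0.372), and Slc2a1 had 0.31 (95% interval 0.10 to 0.51, limma FDR = 0.168).

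**Figure D4:**
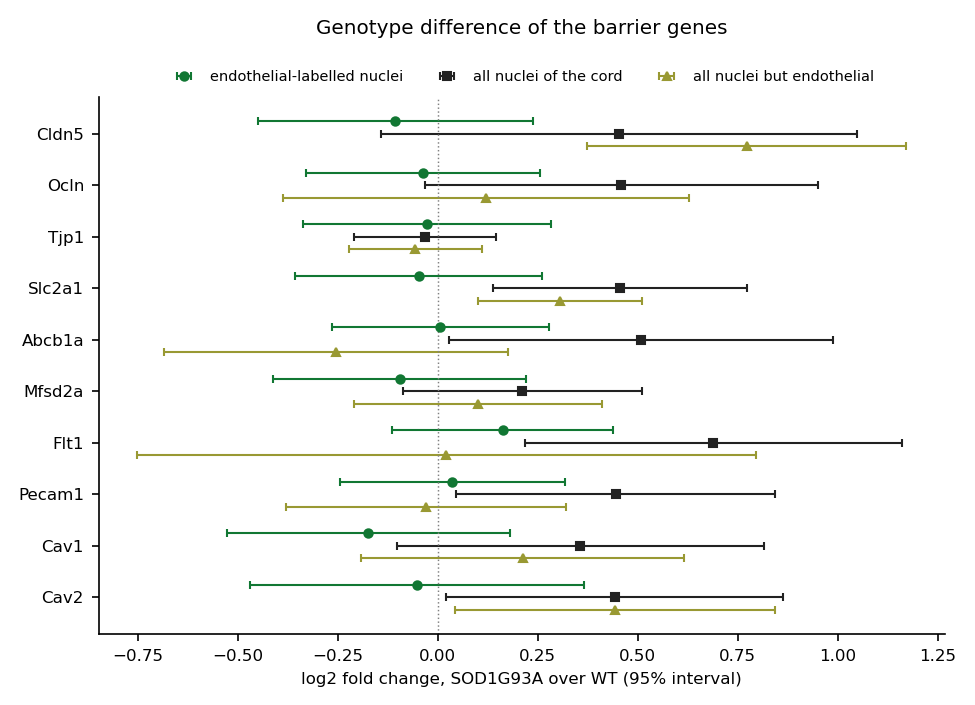
Log2 fold change of SOD1G93A over WT (points) with 95% intervals (bars) for each barrier gene in endothelial-labelled nuclei, in all nuclei of the cord and in all nuclei except the endothelial ones. All endothelial intervals include 0 and lie between −0.53 and 0.44. The points of the sums over all nuclei are above 0 for 9 genes, but the intervals of Mfsd2a, Cav1, Ocln and Cldn5 include 0. Without endothelial nuclei Flt1 is at 0.02 and Cldn5 at 0.77.

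Outside the endothelium, 28 tests of members were possible over the 9 other types, since a member had to pass the filter on low counts. Neurons allowed 9 of these tests, astrocytes and oligodendrocytes 5 each, microglia 3, fibroblasts and Schwann and meningeal nuclei 2 each, and OPCs (oligodendrocyte precursors) and motor neurons 1 each, Tjp1. In ependymal nuclei no member passed the filter. In 1 of the 28 tests the member passed FDR < 0.1, against 0.637% of all tests in these types. This was Cav2 in astrocytes, where 2.29% of 9347 genes passed and 1.38% passed as higher in SOD1G93A mice. The study had already reported Cav2 as up-regulated in SOD1G93A astrocytes, from these same nuclei. The share of all genes that passed was 3.07% in motor neurons, 0.0759% in microglia, 0.0475% in oligodendrocytes, 0.0411% in OPCs, 0.036% in Schwann and meningeal nuclei, 0.0255% in neurons and 0% in fibroblasts, and in these types 0 members passed. The fold changes of Tjp1 over the 8 types lay between −0.30 and 0.42 on the log2 scale. Cav2 ran from 2.21 to 13.4 CPM (median 6.40) in WT and from 12.0 to 23.6 (median 18.2) in SOD1G93A astrocytes. The highest WT mouse, the female of pool C, overlapped the lowest SOD1G93A mouse, the male of pool A, and no other pair of mice did. The filter needed about 13.3 CPM in astrocytes on library sizes without TMMwsp factors, where the highest WT mouse was at 12.0 CPM. On that scale 0 WT and 5 SOD1G93A mice reached it, so Cav2 entered this fit only through the group where it was high. Its count among the 28 tests is a description. Without the filter, where 0.892% of 21311 genes passed, the limma FDR was 0.0728. In the filtered fit the log2 fold change was 1.28 (95% interval 0.56 to 1.99, limma FDR = 0.0738), and edgeR gave 1.29 (edgeR FDR = 0.0767).

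The astrocyte result rests on few molecules, 37 UMIs in 927 WT nuclei and 73 in 628 SOD1G93A nuclei. A UMI of Cav2 was present in 3.45% of WT and 8.60% of SOD1G93A astrocytes, at median depths of 5219 and 5554.5 UMIs. At 1000 UMIs per nucleus the shares were 0.865% and 2.87%, where 0.251% of neurons had one. DESeq2 gave an unadjusted p of 0.00209 and no adjusted p, and the limma FDR was above 0.1 without any one of 11 of the 12 mice, from 0.101 to 0.180, while the log2 fold change with 1 mouse left out was 1.10 to 1.41. In astrocyte nuclei with no UMI of the endothelial markers, Cldn5, Flt1, Pecam1, Abcb1a or Ocln, chosen after seeing the data, Cav2 had 28 UMIs in 763 WT and 48 in 511 SOD1G93A nuclei. It fell below the filter there, and without a filter its log2 difference was 1.23 (limma FDR = 0.249). Cav1, its neighbour on the chromosome, had 2 UMIs in WT and 18 in SOD1G93A astrocytes and was too low for the main fit. It had 0 UMIs in 4 of the 6 WT mice, so no fold is given. In the fit without the filter it passed beside the 0.892% of all genes (limma FDR = 0.0654). In the same astrocytes Slc2a1 had a log2 fold change of 0.23 (95% interval −0.09 to 0.55) and Mfsd2a of −0.24 (95% interval −0.62 to 0.14), and Flt1 had 78 UMIs in WT and 36 in SOD1G93A nuclei. Of the 78 WT UMIs of Flt1, 42 came from the female of pool C, at 80.6 CPM against 2.09 to 18.2 CPM in the other mice. In endothelial nuclei, as given above, neither caveolin passed.

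Cldn5 outside the endothelial type was examined after its value in the sums without endothelial nuclei had been seen. Levels in this paragraph are CPM on library sizes without TMMwsp factors, unlike the levels above. Cldn5 ran from 0.828 to 1.67 CPM in WT and from 1.85 to 2.79 in SOD1G93A mice, on 151 and 155 UMIs. On these unscaled sizes the genotypes did not overlap, as for 0.642% of the genes tested in these nuclei (0.588% with SOD1G93A mice higher). Whether they overlap on scaled sizes was not examined. The log2 fold change was 0.77 (95% interval 0.37 to 1.17, limma FDR = 0.0556), in a fit where 2.74% of 16828 genes passed. The call was lost with DESeq2 (FDR = 0.114), without the term for pool (limma FDR = 0.235) and in 8 of the 12 fits that each left out 1 mouse. By comparison, Flt1 in the same nuclei was at 5.79 ± 3.01 CPM in WT and 5.81 ± 3.46 in SOD1G93A mice, and the 12 endothelial markers at 35.1 ± 7.92 and 32.0 ± 5.15 CPM (SD, n = 6 mice each). That sum leans on 1 gene. In neurons, pooled over mice, Tek alone was at 23.6 CPM and every other marker of the 12 at 5.26 CPM or less. By label, pooled over mice, Cldn5 was at 2.85 CPM in WT and 6.28 in SOD1G93A astrocytes (16 and 27 UMIs), at 1.33 and 3.20 in microglia (15 and 16), at 1.65 and 3.07 in oligodendrocytes (18 and 22), at 0.936 and 1.11 in neurons (88 and 58), and at 17.8 and 12.0 CPM in Schwann and meningeal nuclei (13 and 29 UMIs). With the latter type also taken out, the fold change was 0.70 (limma FDR = 0.477). The part of stray endothelial RNA in these counts was not tested, and they amount to 4.56% of all Cldn5 UMIs.

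**Figure D5:**
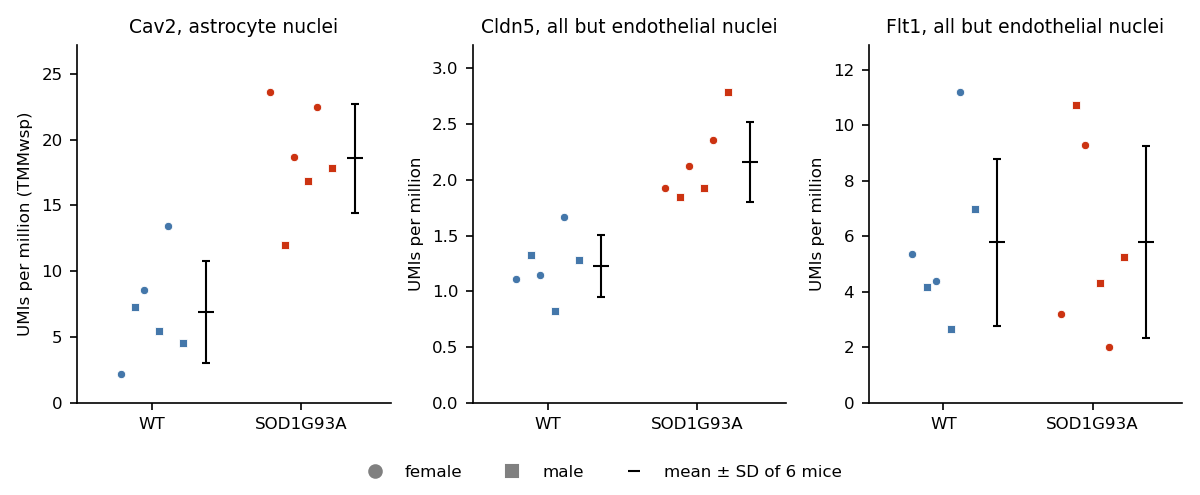
Cav2 in astrocyte nuclei (CPM on TMMwsp-scaled library sizes), and Cldn5 and Flt1 in all nuclei except the endothelial ones (CPM), per mouse, with axes from 0. Circles are females, squares are males, and black marks are the mean ± SD of 6 mice. Cav2 overlaps between the genotypes in 1 pair of mice. On library sizes without TMMwsp factors Cldn5 does not overlap (highest WT 1.67, lowest SOD1G93A 1.85) and Flt1 overlaps throughout.

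The genes whose pattern was most like that of each member were named over 96 sums per mouse and type in 8 types, by the Pearson r of log2(CPM + 1). The sums share mice, and the r values mainly reflect the gap between endothelial nuclei and the rest, so they are given without a test. Cldn5 was nearest to Cd34 (r = 0.947), Ly6c1 and Foxf2, and Flt1 to Srgn (r = 0.925), Ly6a and Ly6c1. Abcb1a was nearest to Slco1a4 (r = 0.938), a carrier of organic anions, then Sox18 and Slc22a8. Pecam1 was nearest to Rasip1, Kdr and Slfn5 (r = 0.918 to 0.908), Ocln to Tbx1, She and Ccm2l (r = 0.916 to 0.914), and Slc2a1 to Nfkbia, Crip2 and Ramp2 (r = 0.935 to 0.916). The remaining members had other neighbours and lower r. Mfsd2a was nearest to Gpr146, Sparc and Epas1 (r = 0.875 to 0.861), Tjp1 to Igf1r, Fut8 and Sgms1 (r = 0.884 to 0.872), Cav1 to Cald1, Foxp1 and Cnn2 (r = 0.846 to 0.830), and Cav2 to Bsg and Ctnnb1 (r = 0.886 and 0.877).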

How the data were processed

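The counts are UMIs per gene and nucleus as deposited by the authors, without normalization, made with Cell Ranger 3.1 on a pre-mRNA reference of mm10 (so that intronic reads count). The authors used Seurat 4.0.3 to assign nuclei to mice by hashtag, dropped nuclei with ambiguous or no hashtag, and labelled cell types by cluster. The deposited table of normalized values was not used. Genotype, sex and pool were read from the table of nuclei and matched the table of mice for all 14662 nuclei.

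UMIs were summed per gene, mouse and label. After the methods of the study, genes were filtered (filterByExpr), scaled (TMMwsp) and fitted with limma 3.58.1 (voom) on groups of sex and genotype with a term for pool. A minimum count of 10 and robust eBayes were set here. P values were adjusted over all genes of a fit, with a threshold of FDR < 0.1. Nuclei per type were tested with edgeR 4.0.16 (threshold 0.05), and DESeq2 1.42.0 was an alternative. The pool is a block because mice of 1 pool shared preparation. The median correlation of deviations from group means in endothelial sums was 0.0649 for same-pool pairs (7 of 18 above 0.1) and −0.0458 for others (6 of 36). The endothelial fit was also run on simulated counts, without a pool effect and with planted changes larger than the members' differences. This does not test differences as small as theirs.

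The members and all lists were chosen with earlier results of these data known. Named are the 10 members, the gene of smallest genotype p per list, every list gene called, and 3 genes of most like pattern per member, of which 1 is not reported here. Marker genes and Cldn5 outside the endothelium are named in addition, the latter chosen after its values were seen.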

Additional observations from a re-analysis of the deposited data

Results flagged for a closer look

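In 3 of 44 groups of 6 mice that were screened for a mouse far from the others, 1 mouse lay farther off than Dixon's 95% limit allows, where chance flags about 1 in 20 groups. Flt1 in endothelial nuclei was at 3886 CPM in the SOD1G93A female of pool A, which had the fewest endothelial nuclei (21), and at 5344 to 5738 CPM in the other 5 SOD1G93A mice. Over all nuclei, Pecam1 was at 38.7 CPM and Cav2 at 15.7 CPM in the SOD1G93A male of pool C, with the next mouse at 24.2 and 9.33 CPM. Endothelial nuclei gave 5.23% of all UMIs in this mouse and 1.17% to 3.67% in the others.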

How the results depend on the processing

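In endothelial nuclei, 0 members passed by genotype, by sex or for their difference under each of the 22 alternatives run for each (edgeR, DESeq2, no block for pool, other filters and scalings, eBayes without the robust option, each mouse left out, and nuclei with none or with 3 or more mural genes, the last 2 chosen after seeing the data). The planned fit on nuclei without any mural marker was not run, since 11 nuclei remained. Over all nuclei, where 0 members passed averaged over the sexes, leaving out 1 mouse gave 0 to 8, and 1 passed with DESeq2 (Slc2a1) and 1 without endothelial nuclei (Cldn5), both chosen after seeing the data. The cause was not tested. In the other types, the 1 call (Cav2 in astrocytes, which passed the filter only through SOD1G93A mice) became 0 to 1 with 1 mouse left out, 2 with no filter on low counts (Cav1 added) and 0 with DESeq2, which gave an adjusted p for 19 of 28 tests and none for Cav2. For Cldn5 outside the endothelium the log2 fold change was 0.67 to 0.89 with 1 mouse left out, but the call was lost in 8 of these 12 fits. It was also lost with DESeq2 (FDR = 0.114), without the block (limma FDR = 0.235) and without Schwann and meningeal nuclei (limma FDR = 0.477). Of 17 alternatives, 6 kept it. The fit with no replicate block (pairing by pool ignored) left the abundance of endothelial nuclei, the members in endothelial nuclei and over all nuclei, and Cav2 in astrocytes on the same side of the threshold, but not Cldn5. Over all nuclei it lowered the count of all genes called from 536 to 32, and leaving out 1 mouse gave 152 to 1045. In endothelial nuclei leaving out 1 mouse gave 1 to 5. The abundance difference ran from 0.28 to 0.80 over the alternatives, never passing. Endothelial levels moved by less than 1 SD under TMMwsp scaling and pooling. Sums of 21 to 65 nuclei per mouse limit what can be seen to the intervals given.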
